A study of Mus musculus with 24 samples.

Results

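Long-term haematopoietic stem cells (LTHSC) of a Jak2 exon 12 mouse line were compared with those of a Jak2 knock-in line. The comparison takes 6 of the 24 bulk RNA-seq libraries of the series, picked by their titles: 3 labelled E12 (replicates 2, 4 and 11) and 3 labelled KI (replicates 1, 2 and 3). Both groups are C57BL/6N mice that carry Scl-Cre, a Cre driver named for Scl (Tal1), a transcription factor gene of blood stem cells. E12 mice carry an allele labelled Exon12 (the titles write Scl.N1, which is not expanded), and KI mice a mouse Jak2 knock-in; the labels do not say what sequence the knock-in holds. All mice received tamoxifen on 5 days, LTHSC were sorted from bone marrow by flow cytometry 12 weeks later, and RNA was amplified by Smart-seq2, a full-length protocol for few cells. Age is not given. The labels do not say whether replicates are separate mice, so p-values measure the spread between these libraries, which may be technical. Set beside the comparison are 3 LTHSC libraries labelled VF (C57BL/6N mice with a V617F allele and Vav1-Cre, another driver active across blood cells) and 3 E12 and 3 KI libraries of megakaryocyte progenitors (MkP).

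JAK2 is the kinase that passes signals from the receptors for erythropoietin, thrombopoietin and several interleukins to STAT transcription factors, STAT5 above all in red cell precursors. In human disease, exon 12 mutations of JAK2 are known from polycythaemia vera, in which too many red cells are made, while V617F is found in polycythaemia vera, in essential thrombocythaemia and in myelofibrosis. Long-term stem cells sit above all these lineages, divide rarely and carry little lineage RNA.

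Total counts were 24076890 to 29415489 in the E12 libraries and 12800097 to 16717145 in the KI libraries. All 6 libraries expressed the stem cell genes Meis1, Hlf, Procr and Kit, and all had Y-linked Eif2s3y RNA (51.8 to 81.5 CPM) and little Xist (0.0343 to 12.4 CPM). The E12 4 library stood apart. It lay at 68.8 on the first principal component of the 9 LTHSC libraries, where no other passed 25.0. Its TMM scaling factor, which sets library sizes on 1 scale, was 0.754, against 0.990 to 1.06 in the other 8. It held 19648 CPM (read counts scaled to library size) of Mpo, the neutrophil myeloperoxidase, against at most 427 CPM in any other LTHSC library. Cd48, whose protein long-term stem cells lack, reached 586 CPM there, against at most 13.3 CPM elsewhere. Among stem cell genes it held 6.56 CPM of Mecom, against 88.3 to 150 CPM in the other 8. The LTHSC comparison was therefore fitted with and without E12 4, though for many genes the values of a single fit are given. The cause of the E12 4 profile was not tested. The Spearman correlation of log2 fold change with gene length was -0.310 over 14152 genes with E12 4. Without E12 4 the correlation was 0.00470 over 14457 genes. E12 11, the next on the first component (25.0), also lay apart on the second. It stood there at -53.7, against -0.307 to 24.6 in the other 8, and it remains in the fit without E12 4. E12 11 also had the fewest genes detected of the LTHSC libraries, 14239, against 14623 to 16006 in the others.

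Few genes passed the edgeR test between E12 and KI stem cells, and globin genes led them. With all libraries, the edgeR quasi-likelihood test called 5 genes higher and 1 lower among 14152 tested at a Benjamini-Hochberg adjusted p under 0.05, or 0.0424%. The higher genes were the α-globins Hba-a1 and Hba-a2, the β-globins Hbb-b1 and Hbb-bs, and the cell surface proteoglycan gene Gpc3, and the lower gene was the myosin light chain gene Myl10. Hba-a1 with Hba-a2, and Hbb-b1 with Hbb-bs, count as 1 locus each. Without E12 4, 11 genes were higher and 7 lower among 14457 tested, or 0.125%. These 18 included the first 6, and added Hbb-bt, Hbb-b2, Mfsd2b, Gata1, Nkg7 and Dynll1 on the higher side and Socs2, Plxdc2, Eif3b, Epb41l4b, Ppp1r15a and Chad on the lower side. At an unadjusted p under 0.05 there were 1957 genes with all libraries and 2031 without E12 4. DESeq2, another test on counts, called far more genes at the same threshold: 438 with all libraries and 550 without E12 4. The E12 libraries were all sequenced more deeply than the KI libraries; the part of depth in these calls was not tested. Fitted on E12 and KI libraries alone, 2 genes were called with E12 4 and 2 without it, in both cases Hba-a1 and Hba-a2. Every other call was lost in that fit, where VF does not add to the estimate of spread. The counts rested on single libraries. Among the 3 E12 libraries, 396 genes were called without E12 2 and 2 without E12 11. Without KI 1, KI 2 or KI 3 the count was 2 in each case. With E12 4 left out as well, the counts were 6 without KI 1, 2 without KI 2 and 2 without KI 3. Leaving out E12 2 or E12 11 beside E12 4 leaves 1 E12 library, so only effect sizes are given for those fits. Hba-a1 and Hba-a2 were called under all 11 alternatives with E12 4. Without E12 4 they were called under every alternative that kept 2 E12 libraries.

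The α-globin genes had the largest difference among the called genes. Hba-a1 encodes the adult α chain of haemoglobin. It stood at 278, 665 and 707 CPM in E12 2, E12 4 and E12 11, against 13.7, 7.09 and 8.50 CPM in KI 1, KI 2 and KI 3. Every E12 library stood far above every KI library, and E12 2 was the lowest of the 3. The mean was 550 ± 237 CPM in E12 and 9.77 ± 3.50 CPM in KI (SD, n = 3 each). The log2 fold change was 5.82 (SE 0.46, edgeR adjusted p = 0.000776), and 5.67 (SE 0.43, edgeR adjusted p = 0.00102) without E12 4. The VF libraries lay between, at 25.0 to 38.9 CPM. VF and E12 are set against the same KI libraries, so their differences from KI are not independent. Hba-a2, its near copy, gave nearly the same counts (275, 660 and 702 CPM in E12, against 13.6, 7.09 and 8.43 CPM in KI). Reads of the 2 genes cannot be told apart, so they count as 1 locus. In bulk RNA, more cells of a type and more RNA per cell cannot be told apart either.

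The β-globin locus moved the same way. Hbb-bs, an adult β chain, was at 64.3, 166 and 134 CPM in E12 2, 4 and 11, against 16.1, 8.83 and 7.67 CPM in KI 1, 2 and 3 (log2 3.48, SE 0.43, edgeR adjusted p = 0.0304). The entry Hbb-b1 had nearly the same values (64.2, 166 and 134 CPM in E12) and counts with Hbb-bs as 1 locus. Every E12 library again lay above every KI library. Hbb-bt, the other adult β gene, had 48.5, 115 and 104 CPM in E12, against 20.9, 14.6 and 12.5 CPM in KI; it passed without E12 4 (log2 2.26, SE 0.33, edgeR adjusted p = 0.0440) and not with it (log2 2.48, edgeR adjusted p = 0.0543). With E12 4 left out, the Hbb-bt call was lost under limma voom (adjusted p = 0.0642) and with E12 and KI libraries alone (edgeR adjusted p = 0.189). It was also lost without KI 1, KI 2 or KI 3 (edgeR adjusted p = 0.0887 to 0.143). The Hbb-bt log2 values were 2.11 to 2.49 in these fits, and 1.61 with E12 11 left out beside E12 4. Hbb-bs lost its call without E12 11 (edgeR adjusted p = 0.0651), KI 1 (0.0698), KI 2 (0.153) or KI 3 (0.264), with log2 values of 3.28 to 3.89 in these fits. Hbb-bs was also not called with E12 and KI libraries alone (edgeR adjusted p = 0.175, log2 3.46). The range of its adjusted p over all alternatives was 6.06e-13 to 0.264. The embryonic globins Hba-x, Hbb-y and Hbb-bh1 had 0 CPM in all KI libraries and at most 0.0343 CPM in E12. Within E12 the E12 2 library was the lowest for each of the 6 adult entries, which count in pairs as 1 locus each.

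The promoters of the called globin loci and of Gata1, which passed without E12 4, are shown because these genes were higher together. Each line gives the 250 bases before 1 RefSeq start of the gene, 5′ to 3′ on the gene's strand (GRCm38.p6). Capitals mark 3 motifs: GATAA, read by GATA factors, CCNCNCCC, read by KLF factors, and CCAAT, each on either strand. None of the matches to different motifs overlap. Hba-a1 is at chr11:32283422-32283671 on the plus strand, and Hbb-bs at chr7:103827929-103828178, Hbb-bt at chr7:103813924-103814173 and Gata1 at chrX:7967911-7968160 on the minus strand. The Gata1 window lies inside the span of the gene given below, so it does not precede the gene's outermost start.
Hba-a1: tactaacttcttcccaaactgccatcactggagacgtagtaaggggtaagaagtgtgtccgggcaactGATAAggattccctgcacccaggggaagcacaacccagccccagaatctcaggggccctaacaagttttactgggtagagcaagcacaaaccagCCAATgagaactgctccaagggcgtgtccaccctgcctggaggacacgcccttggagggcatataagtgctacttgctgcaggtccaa
Hbb-bs: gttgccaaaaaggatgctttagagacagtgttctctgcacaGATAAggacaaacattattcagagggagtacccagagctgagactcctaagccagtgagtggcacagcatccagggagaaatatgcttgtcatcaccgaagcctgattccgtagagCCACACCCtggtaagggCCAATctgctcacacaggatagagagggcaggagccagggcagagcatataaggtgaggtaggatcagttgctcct
Hbb-bt: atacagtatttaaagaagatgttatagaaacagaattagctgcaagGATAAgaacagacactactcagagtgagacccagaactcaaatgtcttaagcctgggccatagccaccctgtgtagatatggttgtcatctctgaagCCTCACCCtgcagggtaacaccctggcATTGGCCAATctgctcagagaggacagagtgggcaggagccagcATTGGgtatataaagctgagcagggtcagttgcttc
Gata1: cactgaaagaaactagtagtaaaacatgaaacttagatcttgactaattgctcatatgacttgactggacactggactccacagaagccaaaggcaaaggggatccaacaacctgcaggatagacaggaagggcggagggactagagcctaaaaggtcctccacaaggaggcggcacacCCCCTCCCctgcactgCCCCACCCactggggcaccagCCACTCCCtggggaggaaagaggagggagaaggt
All 5 genes looked up, Hba-a2 included, matched 1 RefSeq window each. The Hba-a2 window shares an unbroken run of 247 of 250 bases with that of Hba-a1, which shows how alike the copies are. Each globin window held 1 GATAA match, and the Gata1 window held 0; 22.6% of 32851 promoter windows of this length hold one. CCNCNCCC occurred once in the Hbb-bs and Hbb-bt windows and 3 times in that of Gata1 but not in that of Hba-a1, and 45.9% of windows hold it. CCAAT occurred in all the globin windows, 3 times in that of Hbb-bt, and in 33.8% of all windows. A match is a string of letters and shows no binding.

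**Figure D1:**
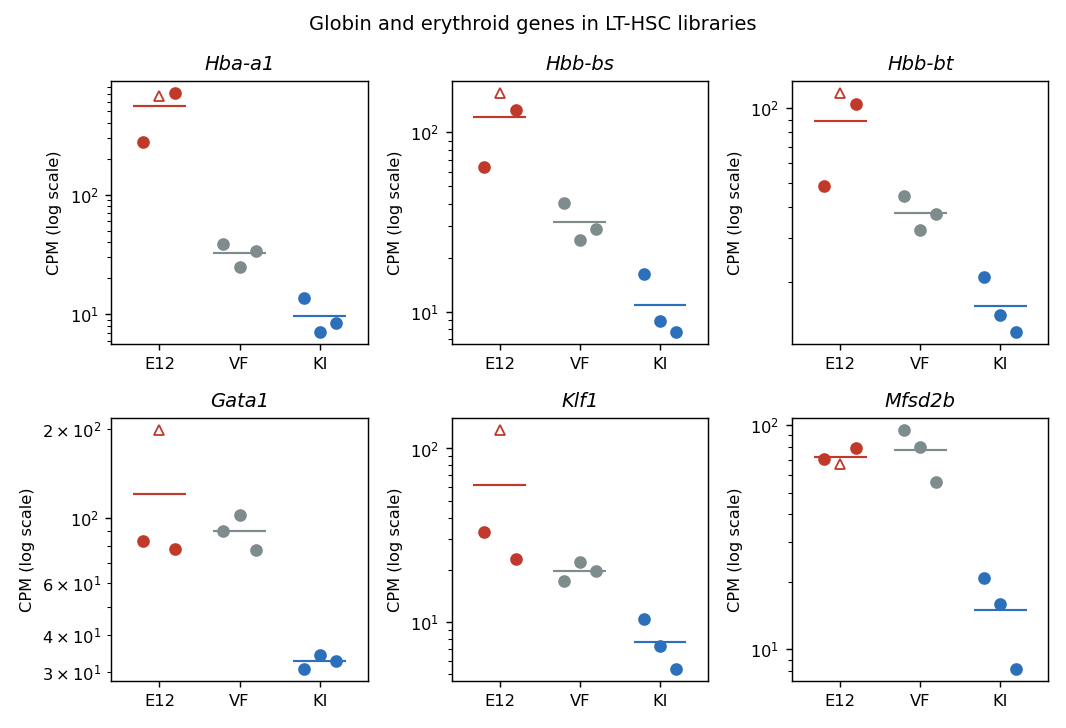
CPM on a log axis (TMM-scaled) of Hba-a1, Hbb-bs, Hbb-bt, Gata1, Klf1 and Mfsd2b in the 3 E12, 3 VF and 3 KI LTHSC libraries. Points are libraries, the open triangle is E12 4, and bars are group means; every E12 point lies above every KI point in each panel, for Hba-a1 at 278 CPM or more against 13.7 CPM or less.

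Erythroid genes beyond the globins were higher in number but mostly short of the threshold. Of the 27 genes of the erythroid progenitor list, every E12 library lay above every KI library for 16, against 7.62% of all tested genes, and below for 0 (8.34% of all genes). The list's median log2 fold change was 1.15, against 0.02 over all genes. No member was called with all libraries. Without E12 4 the groups were apart upward for 18 of 27 (12.5% of all genes) and downward for 0 (12.7%), the median was 1.00, and Gata1 and Mfsd2b were called.

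Gata1 encodes the master transcription factor of the erythroid and megakaryocyte lineages and lies on chromosome X (7959260 to 7976663). It was at 83.7, 198 and 78.2 CPM in E12 2, 4 and 11, against 30.8, 34.3 and 32.8 CPM in KI 1, 2 and 3. The KI libraries agreed closely, and the groups did not overlap. Its log2 fold change was 1.31 without E12 4 (SE 0.16, edgeR adjusted p = 0.0252) and 1.88 with it (SE 0.35, edgeR adjusted p = 0.115). In VF it was at 78.0 to 102 CPM, above the KI libraries too. Leaving out KI 1, KI 2 or KI 3 as well as E12 4 gave an edgeR adjusted p of 0.0887 to 0.109, with log2 values of 1.27 to 1.35. With E12 11 left out beside E12 4, the log2 value was 1.37. Over all alternatives the adjusted p ran from 1.02e-09 to 0.175.

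Mfsd2b, which exports sphingosine-1-phosphate from red cells and platelets, varied little within E12. Its libraries held 70.3, 67.4 and 79.2 CPM in E12 2, 4 and 11, against 20.9, 15.9 and 8.18 CPM in KI 1, 2 and 3, and 55.8 to 95.5 CPM in VF. The call came without E12 4 (log2 2.33, SE 0.35, edgeR adjusted p = 0.0471), at nearly the same size as with it (log2 2.27, edgeR adjusted p = 0.0615). It was lost when KI 1 (edgeR adjusted p = 0.0872), KI 2 (0.143) or KI 3 (0.109) was left out as well. The adjusted p of Mfsd2b ran from 5.44e-08 to 0.189 over all alternatives. With E12 11 left out beside E12 4, its log2 value was 2.24.

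Several erythroid genes lay above KI in each E12 library without passing the test. Klf1, the factor that drives adult β-globin, had 33.2, 128 and 23.2 CPM in E12, against 10.4, 7.32 and 5.37 CPM in KI (log2 1.88 without E12 4, edgeR adjusted p = 0.0649). Aqp1, a water channel of the red cell membrane, had 71.3, 34.0 and 46.5 CPM in E12, against 25.2, 21.4 and 18.5 CPM in KI (log2 1.44 without E12 4, edgeR adjusted p = 0.0514). Apoe had 996, 1732 and 935 CPM in E12, against 528, 513 and 610 CPM in KI. Epor, the erythropoietin receptor gene, had 22.7, 20.9 and 37.0 CPM in E12, against 17.5, 5.70 and 18.5 CPM in KI. For Car1, an early erythroid carbonic anhydrase, E12 4 alone held 327 CPM, against 6.83 and 26.6 CPM in E12 2 and 11 and at most 3.89 CPM in KI. Not all members were apart. Tal1, Nfe2, Gfi1b, Rhag and Zfpm1 overlapped between the groups; Nfe2, for example, had 871, 1004 and 809 CPM in E12, against 821, 813 and 951 CPM in KI.

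Several defining genes of late red cell precursors were at a few CPM or at 0. The summed level of the terminal erythroblast list was 1089, 1096 and 1102 CPM in E12 2, 4 and 11, against 1066, 978 and 1117 CPM in KI 1, 2 and 3, so the sums overlapped. For 9 of 20 every E12 library lay above every KI library, for 1 (Bpgm) below (7.62% and 8.34% of all genes), and 0 were called with or without E12 4. Slc4a1 (band 3) was at 9.0, 4.19 and 6.39 CPM in E12, against 1.23, 0 and 0.767 CPM in KI. Sptb and Trim10 were at 0 in all KI libraries and at most at 2.48 CPM in E12. The part of such cells in the globin difference was not tested.

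Jak2 itself did not separate the groups. It was at 64.9, 22.3 and 57.4 CPM in E12 2, 4 and 11, against 67.6, 48.8 and 78.8 CPM in KI 1, 2 and 3. E12 4 was the lowest, and the other 2 lay within the KI range. The mean log2 CPM differed by -0.52 (exact 2-sided permutation test, p = 0.4; 20 arrangements, so no p can fall under 0.1). Without E12 4 that difference was -0.063. The count table gives the gene's total and not which allele was transcribed. Jak1, Stat3, Stat5a and Stat5b also overlapped, and of the 20 JAK and STAT family genes 0 were called, with 2 lying below KI in every E12 library, near the 8.34% of all genes, and 0 above (7.62%).

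Among STAT target genes, the feedback inhibitors Socs2 and Cish had lower values in E12. Socs2, a STAT5 target whose protein damps cytokine signals, was at 46.7, 14.2 and 34.3 CPM in E12 2, 4 and 11, against 119, 152 and 109 CPM in KI 1, 2 and 3. VF held 221 to 262 CPM, on the other side of KI. Socs2 lies on chromosome 10 (95383903 to 95417321). It passed without E12 4 (log2 -1.64, SE 0.20, edgeR adjusted p = 0.0252) but not with it (log2 -2.00, SE 0.37, edgeR adjusted p = 0.115). The call was also lost when KI 1 (edgeR adjusted p = 0.0811), KI 2 (0.0898) or KI 3 (0.0645) was left out beside E12 4 (range over all alternatives 5.48e-12 to 0.170). With E12 11 left out beside E12 4, the log2 value of Socs2 was -1.43. Cish, a further STAT5-induced inhibitor, was at 80.1, 13.2 and 97.4 CPM in E12, against 158, 228 and 188 CPM in KI and 163 to 210 CPM in VF. Its groups were apart, yet it did not pass (log2 -1.59, edgeR adjusted p = 0.286; without E12 4 log2 -1.10, edgeR adjusted p = 0.0692). Bcl2l1, a survival gene induced by erythropoietin, overlapped, with 66.7, 42.1 and 68.4 CPM in E12, against 59.3, 75.2 and 76.0 CPM in KI. Socs3 had 18.7, 13.4 and 27.5 CPM in E12, against 29.8, 29.5 and 36.0 CPM in KI. Of the 27 JAK-STAT target genes tested, 6 lay above and 6 below KI in every E12 library (7.62% and 8.34% of all genes). Without E12 4 these were 7 and 8 (12.5% and 12.7% of all genes), with 1 gene (Gata1) called higher and 1 (Socs2) lower, where 0.125% of all genes were called.

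**Figure D2:**
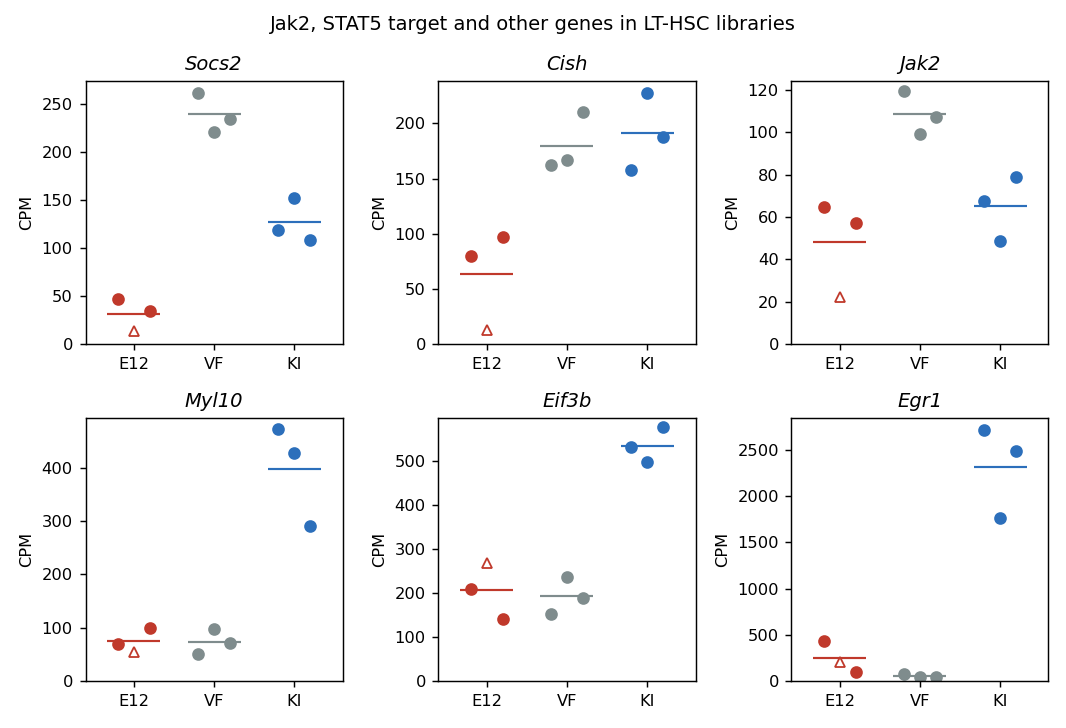
CPM (TMM-scaled, linear axes from 0) of Socs2, Cish, Jak2, Myl10, Eif3b and Egr1 in the 3 E12, 3 VF and 3 KI LTHSC libraries. Points are libraries, the open triangle is E12 4, and bars are group means; Socs2 is lowest in E12 (14.2 to 46.7 CPM) and highest in VF, Jak2 overlaps between E12 and KI, and Myl10, Eif3b and Egr1 are highest in KI.

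Myl10, Eif3b and Chad were lower in E12, and in each of them KI stood above both other lines. Myl10 (chromosome 5, 136688892 to 136701857) was at 69.2, 54.2 and 99.4 CPM in E12 2, 4 and 11, against 473, 427 and 292 CPM in KI 1, 2 and 3 (log2 -2.42, SE 0.33, edgeR adjusted p = 0.0495). With another scaling (RLE) its adjusted p was 0.0513, without E12 11 it was 0.0651, and without KI 1, KI 2 or KI 3 it was 0.181, 0.153 and 0.147; over all alternatives it ran from 2.15e-09 to 0.229. The VF libraries, at 51.0 to 97.3 CPM, lay with E12. Eif3b, a subunit of a translation initiation factor, had 209, 268 and 141 CPM in E12, against 530, 497 and 576 CPM in KI and 152 to 236 CPM in VF (log2 -1.61 without E12 4, SE 0.22, edgeR adjusted p = 0.0416). Chad, a cartilage matrix gene, had 14.4, 3.64 and 13.6 CPM in E12, against 56.8, 69.1 and 77.1 CPM in KI and 7.41 to 15.5 CPM in VF (log2 -2.27 without E12 4, edgeR adjusted p = 0.0416). In each of these genes the KI libraries were the high ones. For Plxdc2 and Epb41l4b, VF lay nearer KI. Plxdc2 had 59.3, 5.73 and 46.4 CPM in E12, against 117, 149 and 145 CPM in KI and 116 to 137 CPM in VF (log2 -1.37 without E12 4, edgeR adjusted p = 0.0310). Epb41l4b had 89.5, 33.0 and 87.8 CPM in E12, against 190, 165 and 181 CPM in KI and 121 to 148 CPM in VF (log2 -1.01 without E12 4, edgeR adjusted p = 0.0416).

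Of the remaining higher genes, Gpc3 had little RNA in KI. It stood at 5.31, 9.20 and 18.1 CPM in E12 2, 4 and 11, against 0.153, 0.465 and 0.319 CPM in KI 1, 2 and 3 and 3.94 to 6.07 CPM in VF (log2 5.07, SE 0.67, edgeR adjusted p = 0.0405). The call was lost under limma voom and when E12 11 (adjusted p = 0.0651), KI 1 (0.163), KI 2 (0.153) or KI 3 (0.289) was left out (1.85e-10 to 0.289 over all alternatives). Nkg7, a gene of cytotoxic and myeloid granules, had 154, 1779 and 220 CPM in E12, against 54.0, 59.5 and 65.2 CPM in KI; it passed only without E12 4, whose value made the E12 spread wide (log2 1.66 without it, SE 0.19, edgeR adjusted p = 0.0252). Dynll1, a dynein light chain, had 77.8, 249 and 77.7 CPM in E12, against 40.9, 35.2 and 33.3 CPM in KI and 86.2 to 103 CPM in VF (log2 1.10 without E12 4, edgeR adjusted p = 0.0416). With E12 4 left out, each of Gata1, Nkg7, Dynll1, Eif3b, Chad, Epb41l4b and Ppp1r15a lost its call without KI 1, KI 2 or KI 3. Plxdc2 lost its call without KI 2 or KI 3.

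Immediate-early genes, which cells switch on within minutes of a stimulus or of handling, made up the list with the lowest median. In 26 of the 37 tested members every E12 library lay below every KI library, against 8.34% of all genes, and in 1 (Myc) above. The list's median log2 fold change was -1.81, and -1.74 without E12 4, when 26 lay below (12.7% of all genes) and 2 above. Without E12 4, 1 member was called, Ppp1r15a, whose protein restarts translation after stress. It had 319, 143 and 154 CPM in E12 2, 4 and 11, against 960, 846 and 1116 CPM in KI 1, 2 and 3 and 94.8 to 133 CPM in VF (log2 -2.04, SE 0.29, edgeR adjusted p = 0.0416). With E12 4 its log2 value was -2.25 (edgeR adjusted p = 0.0543), and its adjusted p ran from 2.79e-08 to 0.303 over the alternatives of that fit.

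Other members of that list missed the threshold with wide gaps between the groups. Egr1, a transcription factor that restrains stem cell division, had 435, 201 and 100 CPM in E12, against 2715, 1760 and 2485 CPM in KI and 47.0 to 73.5 CPM in VF (log2 -3.24, edgeR adjusted p = 0.0571). Nr4a1, a nuclear receptor, had 13.6, 6.67 and 9.14 CPM in E12, against 228, 63.2 and 64.8 CPM in KI (log2 -3.60, edgeR adjusted p = 0.0543). Junb, an AP-1 subunit, had 211, 152 and 200 CPM in E12, against 606, 432 and 1019 CPM in KI (log2 -1.87, edgeR adjusted p = 0.0860). The E12 libraries did not agree among themselves in Jun and Fos, which also encode AP-1 subunits: Jun stood at 614, 461 and 19.6 CPM and Fos at 812, 745 and 69.1 CPM in E12 2, 4 and 11. KI held 675 to 962 CPM of Jun. The summed level of the list was 5184, 4066 and 2488 CPM in E12 2, 4 and 11, 1877 to 1963 CPM in VF, and 14523, 8711 and 12513 CPM in KI 1, 2 and 3. E12 thus lay between VF and KI, and KI was the highest. Malat1, a nuclear RNA whose share varies with RNA handling, moved the same way, at 2390, 1939 and 3317 CPM in E12, against 3920, 4929 and 3565 CPM in KI and 1455 to 2192 CPM in VF; its part in the immediate-early values was not tested.

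Cell cycle genes lay higher in E12, and no single one passed. Every E12 library was above every KI library for 34 of 50 list members, against 7.62% of all genes, and below for 0. The median log2 fold change was 0.98, and 0.58 without E12 4, when 36 lay above (12.5% of all genes) and 1, the transcription factor gene E2f1, below. The sum over the list was 5589, 11008 and 6763 CPM in E12 2, 4 and 11, 5680 to 7131 CPM in VF, and 4269, 3953 and 4244 CPM in KI 1, 2 and 3. E12 4 held the highest sum, yet the other E12 libraries also stood above all KI libraries. Mki67, a proliferation marker, had 163, 232 and 246 CPM in E12, against 106, 84.3 and 131 CPM in KI (log2 0.99, edgeR adjusted p = 0.209). Uhrf1, which keeps DNA methylation through replication, had 105, 158 and 156 CPM in E12, against 65.7, 62.8 and 59.7 CPM in KI. Ccnb2, a mitotic cyclin, was highest in E12 4, with 132, 595 and 159 CPM in E12, against 97.8, 76.7 and 101 CPM in KI. Of the 20 tested quiescence and cell cycle inhibitor genes, 5 lay below and 0 above (8.34% and 7.62% of all genes); Cdkn1c, the inhibitor p57, had 43.0, 8.54 and 7.39 CPM in E12, against 83.3, 76.4 and 94.0 CPM in KI (log2 -2.10, edgeR adjusted p = 0.253).

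**Figure D3:**
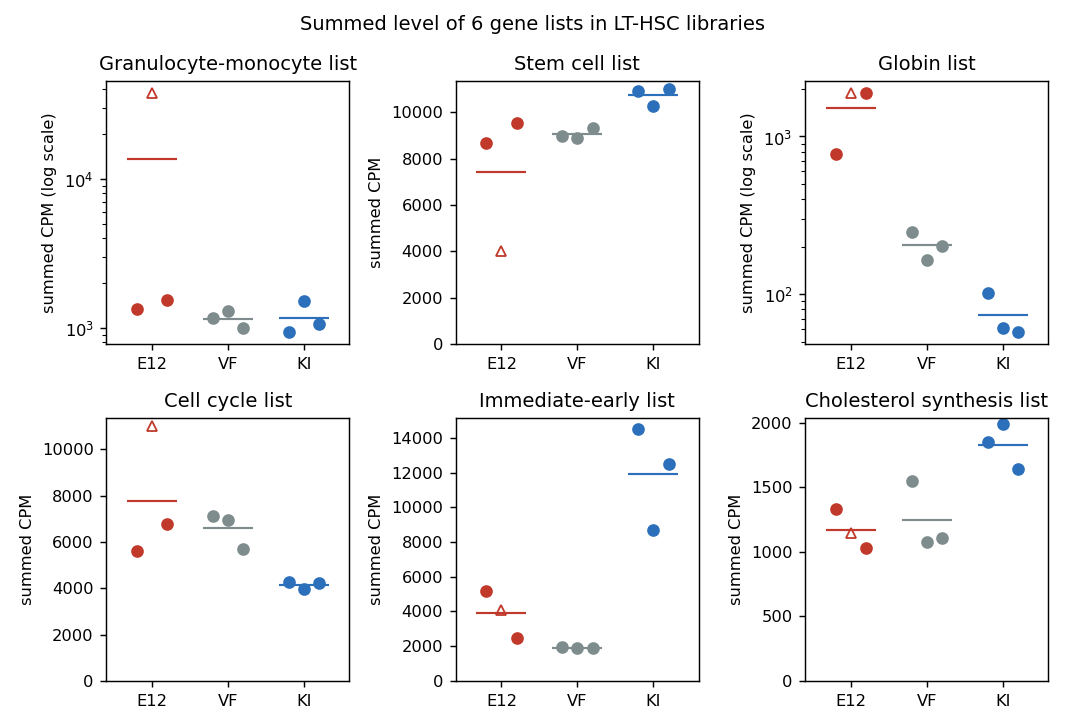
Summed CPM of 6 gene lists in the 3 E12, 3 VF and 3 KI LTHSC libraries (log axes for the granulocyte-monocyte and globin lists, linear axes from 0 for the others). Points are libraries, the open triangle is E12 4, and bars are group means. E12 4 alone is high in the granulocyte-monocyte list. The globin and cell cycle sums are higher in each E12 library than in each KI library. The stem cell, immediate-early and cholesterol sums are lower in each E12 library than in each KI library, and E12 4 has by far the lowest stem cell sum.

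Genes of cholesterol synthesis lay lower in E12 by count, and none passed the test. For 10 of 22 every E12 library was below every KI library and for 0 above (8.34% and 7.62% of all genes), with a median log2 fold change of -0.63. Without E12 4 these were 14 below and 0 above (12.7% and 12.5% of all genes), at -0.70, and 0 members were called in either fit. Sqle (squalene epoxidase) had 98.1, 31.0 and 65.4 CPM in E12 2, 4 and 11, against 140, 172 and 145 CPM in KI 1, 2 and 3 (log2 -1.23, edgeR adjusted p = 0.258). Msmo1, a sterol oxidase, had 82.3, 48.6 and 26.5 CPM in E12, against 177, 147 and 128 CPM in KI and 45.2 to 78.8 CPM in VF. Srebf2, the factor that controls the pathway, overlapped, with 175, 139 and 203 CPM in E12, against 160, 146 and 196 CPM in KI.

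More of the megakaryocyte and platelet genes lay above KI once E12 4 was left out. Of 40 tested with all libraries, 6 lay above and 3 below KI in every E12 library (7.62% and 8.34% of all genes), with a median of 0.12. Of 41 tested without E12 4, 16 lay above and 4 below (12.5% and 12.7% of all genes), with a median of 0.30, and 0 were called in either fit. Itga2b (CD41) had 223, 129 and 330 CPM in E12 2, 4 and 11, against 76.9, 76.5 and 110 CPM in KI 1, 2 and 3 and 190 to 333 CPM in VF (log2 1.66 without E12 4, edgeR adjusted p = 0.0527). Selp, the P-selectin of platelet granules, had 135, 116 and 184 CPM in E12, against 42.6, 43.1 and 86.2 CPM in KI. Pf4 (platelet factor 4) had 90.6, 51.0 and 44.3 CPM in E12, against 32.0, 17.2 and 16.7 CPM in KI. All 3 genes were above KI in each E12 library. Vwf, known from platelet-biased stem cells, had 76.4, 6.72 and 65.1 CPM in E12, against 36.7, 43.8 and 38.4 CPM in KI and 187 to 292 CPM in VF, so that E12 4 alone lay under KI.

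Interferon response genes were little apart with all libraries (5 of 53 above and 1 below, near or under the 7.62% and 8.34% of all genes, median 0.13). Without E12 4, 19 of 53 lay above and 5 below (12.5% and 12.7% of all genes), with a median of 0.18 and 0 called. Igtp, an interferon-induced GTPase, had 501, 247 and 489 CPM in E12 2, 4 and 11, against 232, 297 and 231 CPM in KI 1, 2 and 3 (log2 0.97 without E12 4, edgeR adjusted p = 0.0692). E12 2 and E12 11 lay above KI, and E12 4 was the lowest E12 library. Of 25 cytokine receptor genes 6 lay above KI in every E12 library and 0 below (7.62% and 8.34% of all genes), and 0 were called. Il1r1, the interleukin-1 receptor gene, had 20.9, 27.3 and 39.5 CPM in E12, against 7.82, 6.63 and 16.2 CPM in KI. Heme synthesis genes had 3 of 16 above and 0 below with all libraries, against the same shares of all genes, and a median of 0.40, or 0.20 without E12 4; Alas1, the general first enzyme, had 60.1, 555 and 72.8 CPM in E12, against 48.6, 48.9 and 41.3 CPM in KI.

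Several lists of other cell types moved with E12 4. The summed level of the granulocyte-monocyte progenitor list was 1335, 37555 and 1528 CPM in E12 2, 4 and 11, against 935, 1516 and 1065 CPM in KI 1, 2 and 3. Its median log2 fold change was 2.88 with E12 4 and 0.19 without it. The mast, basophil and eosinophil list had medians of 3.88 and 0.11, that of mature myeloid cells 1.27 and 0.30, that of neutrophil and monocyte granules 0.43 and -0.29, and that of B cells 1.55 and 0.35. Other lists changed less: the median was 0.61 with E12 4 and 0.64 without it for 8 dendritic cell genes, 0.97 and 0.89 for stroma and endothelium, and 0.44 and 0.35 for 5 T and NK cell genes. The summed level of the T and NK list, of which Nkg7 is a member, was 211, 1870 and 262 CPM in E12, against 96.8, 102 and 111 CPM in KI. Stem cell genes had a median of -0.39 with E12 4, when 8 of 40 lay below KI in every E12 library and 0 above (8.34% and 7.62% of all genes), and of -0.00440 without it, when 9 lay below and 6 above (12.7% and 12.5%). Their sum was 8664, 4033 and 9555 CPM in E12, against 10941, 10277 and 11006 CPM in KI. Egr1, also a member, was far higher in KI, as given above. Apart from Egr1, only the E12 4 sum lay below all KI sums. E12 2 and E12 11 differed from each other too: Rn45s, a ribosomal RNA gene, made up 5.04% of the counts of E12 11, against 1.07% in E12 2, and E12 11 lay at -53.7 on the second principal component, where E12 2 was at 1.29.

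**Figure D4:**
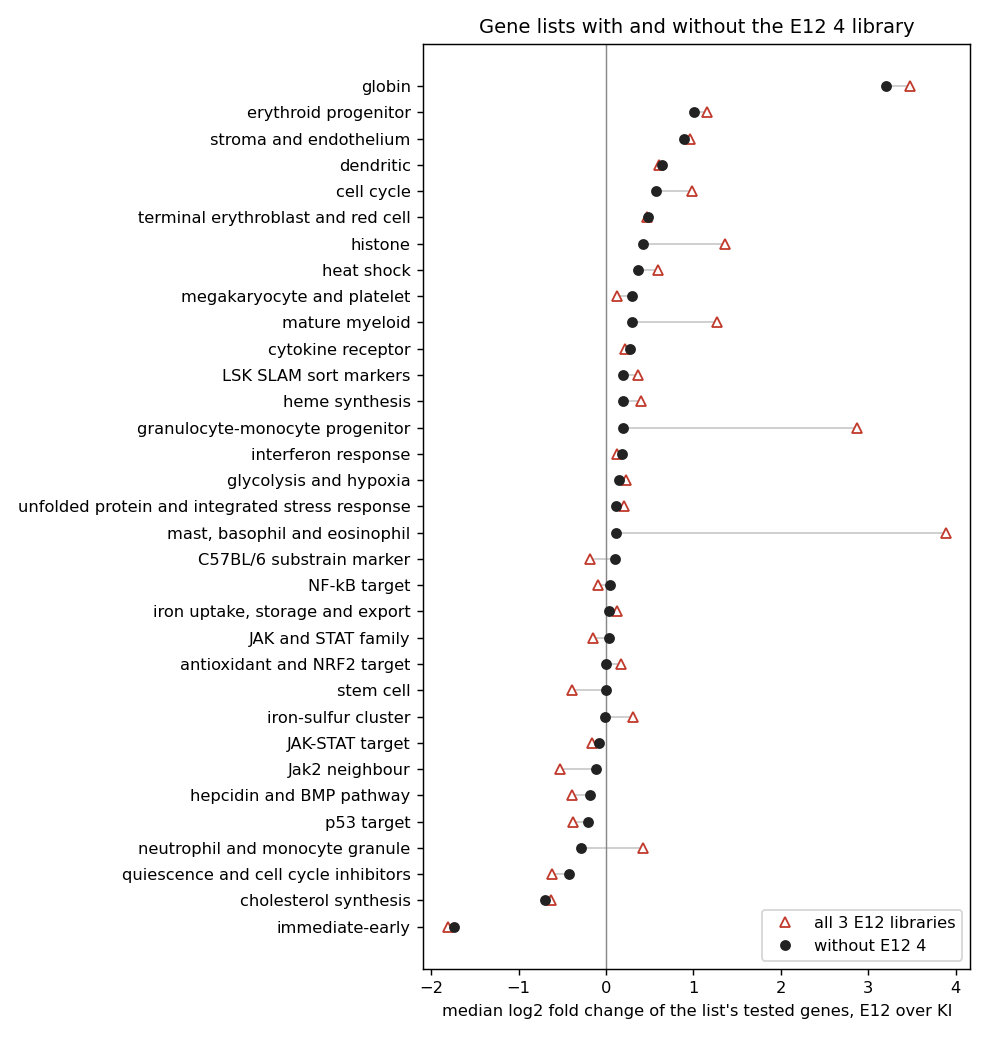
Median log2 fold change (E12 over KI) of the tested genes of each list with all 3 E12 libraries (open triangles) and without E12 4 (filled circles), in the order of the circles; RNA quality, B lymphoid, and T and NK lymphoid are not drawn. The mast, basophil and eosinophil median goes to 0.11 without E12 4, against 3.88 with it, while the globin (3.20 and 3.48) and immediate-early (-1.74 and -1.81) medians change little.

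In megakaryocyte progenitors, the same line contrast gave 0 called genes of 13435 (0%) by edgeR, with 3899 at an unadjusted p under 0.05, 2834 by DESeq2 and 0 by limma voom. KI 5 and KI 6 stood apart there: their TMM factors were 0.585 and 0.530, and their Malat1 levels 18696 and 8763 CPM, against 682 to 1289 CPM in the other 7 MkP libraries. Without KI 4 edgeR called 6856 genes. Without KI 5 and KI 6 a single KI library remains, so no count is given for that fit. The MkP libraries also mixed sexes, with Xist at 725, 1693 and 1776 CPM in E12 2, 4 and 5, against 2211, 48.6 and 11.4 CPM in KI 4, 5 and 6. The labels do not say whether LTHSC and MkP libraries share animals. The E12 LTHSC libraries had Y-linked RNA and little Xist, while all E12 MkP libraries held much Xist. These E12 libraries therefore do not come from the same single mice. Among 9 tested genes listed as differing between C57BL/6 substrains, Echdc2 was at 175, 171 and 175 CPM in E12 MkP, against 163, 5.45 and 1.68 CPM in KI MkP, so that KI 5 and KI 6 again stood apart from KI 4. In LTHSC it was at 308 to 432 CPM in E12, against 230 to 305 CPM in KI, while VF held 3.80 to 5.95 CPM. All these groups are labelled C57BL/6N, and the part of genetic background in the values of VF and of MkP KI was not tested.

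Beside the stem cell values, Hba-a1 stood in MkP at 298, 103 and 55.5 CPM in E12 2, 4 and 5, against 4.98, 27.6 and 17.3 CPM in KI 4, 5 and 6 (log2 3.22, SE 0.79, edgeR adjusted p = 0.0616). All 6 globin entries, which count in pairs as 1 locus each, were above KI in each E12 library, with a median of 2.6. Of all genes tested in MkP, 13.6% were above KI in this way. Socs2 stood at 12.3, 9.61 and 6.69 CPM in E12, against 34.3, 32.5 and 52.0 CPM in KI (log2 -2.06, SE 0.33, edgeR adjusted p = 0.0616). Myl10 was at 2.13, 5.45 and 8.16 CPM in E12, against 17.2, 68.1 and 90.5 CPM in KI (log2 -3.47, edgeR adjusted p = 0.0616). Mfsd2b was at 674, 745 and 552 CPM in E12, against 371, 280 and 228 CPM in KI (log2 1.16, edgeR adjusted p = 0.0707). Gata1 had 320, 281 and 311 CPM in E12, against 310, 137 and 146 CPM in KI, and Jak2 overlapped at 45.9 to 55.9 CPM in E12, against 36.5 to 66.0 CPM in KI. Nkg7 and Dynll1 had the other sign in MkP: Nkg7 was at 460, 452 and 552 CPM in E12, against 267, 4705 and 6377 CPM in KI, where the 2 high libraries are those that stood apart. With KI 5 and KI 6 left out, Nkg7 (log2 0.859) and Dynll1 (log2 0.212) had the same sign as in LTHSC.

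**Figure D5:**
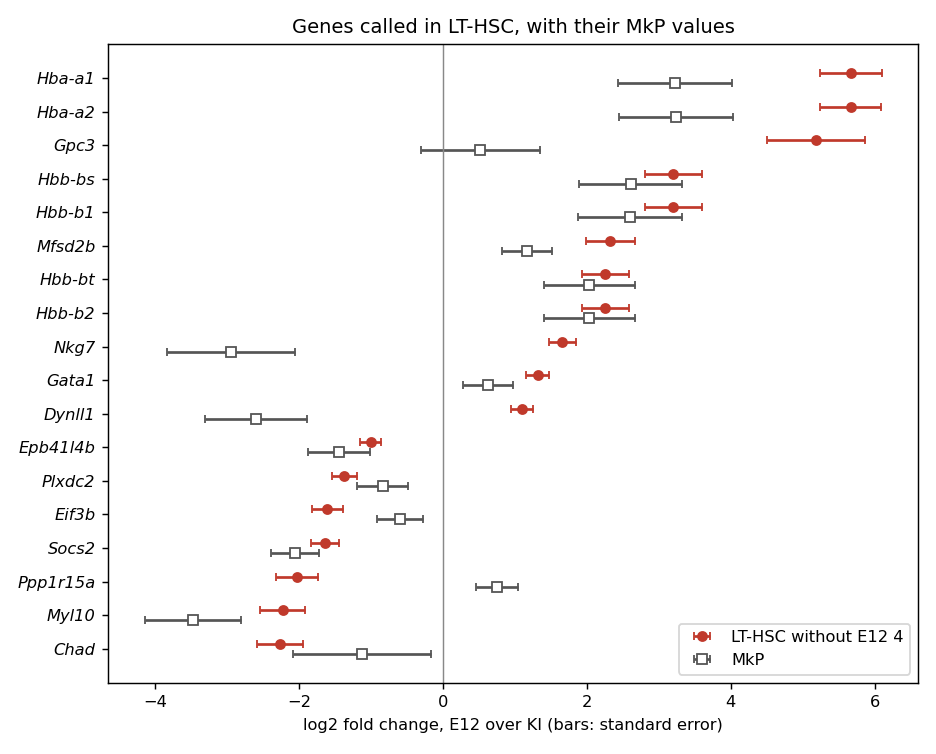
Log2 fold change (E12 over KI, bars are standard errors) of the 18 genes called in LTHSC without E12 4, in LTHSC without E12 4 (filled circles) and in MkP (open squares). Hba-a1 is at 5.67 in LTHSC and 3.22 in MkP and Socs2 at -1.64 and -2.06, while Nkg7, Dynll1 and Ppp1r15a have opposite signs in the 2 populations. With MkP KI 5 and KI 6 left out (not drawn), Nkg7 is at 0.859 and Dynll1 at 0.212 in MkP, and Ppp1r15a stays positive there.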

How the data were processed

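Per the labels' protocols, RNA was extracted with PicoPure columns and libraries were made by Smart-seq2. The authors deposited 1 table of raw counts per gene and library; the submitters' processing notes name STAR 2.7.0c, featureCounts and Subread 1.6.4. How strand and multiply mapped reads were treated, and the gene annotation, are not given in the sources used here. The 16 rows without a symbol, at most 0.0132% of a library's counts, were left out. Coordinates are RefSeq GRCm38.p6, matched by ID for 24374 of 24454 genes.

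Groups came from the sample titles. The test was that of edgeR 4.0.16 under R 4.3.3 (filterByExpr, TMM, 2-sided quasi-likelihood F test with robust dispersion, calls at a Benjamini-Hochberg adjusted p under 0.05), fitted over the 9 LTHSC libraries so that VF adds to the estimate of spread, and over the 9 MkP libraries. CPM is TMM-scaled within a population. Above and below mean that all E12 libraries lay on one side of all KI libraries. Each fit was also run without the filter on low counts, with RLE scaling, with limma 3.58.1 voom, with DESeq2 1.42.0, on E12 and KI libraries only, and with each library left out. The code was tested on simulated counts. No 2 of these LTHSC libraries were copies of each other. Total counts per library are given with the results; Smart-seq2 reads carry no identifiers of single molecules.

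Entries with the same or nearly the same values count as 1 locus each: Hba-a2 with Hba-a1, Hbb-b1 with Hbb-bs, and Hbb-b2 with Hbb-bt. Named genes are Jak2; called genes with at least 10 CPM in the higher group and no overlap; and the members of each list and the genes of each fit with the smallest p. Other list members were named as examples after their values were seen. The members and the 36 lists were chosen with earlier results of these data known.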

Additional observations from a re-analysis of the deposited data

Results flagged for a closer look

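Among the named genes, 5 had E12 libraries that differed from KI in one direction in 1 setting while the other setting went the opposite way in every library. Only named genes, picked by small p or list membership, were screened. The share of all tested genes with such a pattern was not counted, so the 5 cannot be set against it. None of these differences was itself tested. Values are log2 ratios of mean CPM plus 1. Ppp1r15a was higher in E12 than in KI MkP (0.737) and lower in E12 than in KI LTHSC. Il3ra, the interleukin-3 receptor α chain, was lower in E12 than in KI MkP (-0.850) and higher in E12 than in KI LTHSC. Within LTHSC, Socs2 was lower in E12 (-1.97) and higher in VF, each against the same KI libraries. Slc17a8, a vesicular transporter, likewise was lower in E12 (-2.99) and higher in VF. Echdc2, listed among genes that differ between C57BL/6 substrains, was higher in E12 (0.566), with 308, 426 and 432 CPM in E12 2, 4 and 11, against 251, 230 and 305 CPM in KI 1, 2 and 3, while VF held 3.80 to 5.95 CPM.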

How the results depend on the processing

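Without a filter on low counts, edgeR called 21 LTHSC genes with E12 4, 59 without it and 1041 in MkP; DESeq2 called 438, 550 and 2834. Limma voom called 38 without E12 4. With E12 and KI libraries alone, 2 were called with and without E12 4. Leaving out 1 library gave 2 to 396 called genes with E12 4, 2 to 1597 without it and 0 to 6856 in MkP; leaving out MkP KI 5 and KI 6 gave 99. Jak2 without E12 4 turned to 0.00634 without E12 11 and 0.0773 without KI 3; leaving out 1 library it ran from -0.256 to 0.0773. In MkP, leaving out KI 5 and KI 6 reversed Gpc3 (-0.360), Nkg7 (0.859), Gata1 (-0.0394) and Dynll1 (0.212), and Gpc3 was -0.307 without E12 4 (range when 1 library was left out -0.307 to 1.43). The cause was not tested. No paired analysis was possible because LTHSC E12 and KI share only replicate number 2. In MkP, numbers 4 and 5 are shared, with correlations of deviations from the group means of 0.0396 and 0.0923. These cannot tell whether same-numbered samples share more than a number, as KI 5 and KI 6 stand apart and shift the KI means. The replicate block gave 9 called genes and turned Chad to 0.171. With 3 libraries or fewer a group, and E12 deeper than KI, genes of small change or low count were not resolved.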
